A study of Mus musculus with 4 samples.

Results

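The long noncoding RNAs (lncRNAs) described here are 10 mouse genes of 4 kinds. Malat1 and Neat1 make abundant RNAs of nuclear bodies, Gas5, Snhg1, Snhg5 and Snhg12 host small nucleolar RNAs (snoRNAs), Mir17hg and Mir142hg host microRNAs, and Kcnq1ot1 and Meg3 are transcribed from imprinted domains. The genes were chosen by name and their rows were found by NCBI gene number in a table of 27179 genes. Of the 10 genes, 9 matched a row, 8 of them were above 0 in every library, and 7 passed the filter on low values (a mean of at least 0.5 FPKM, fragments per kilobase of gene length and per 1000000 mapped reads). Mir142hg had no matching row and was not analysed here, and the row of the microRNA hairpin inside it, Mir142, is given as a separate feature.

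The study sequenced RNA of leukemia-initiating cells (LICs) from a murine model of acute myeloid leukemia and asked which genes differ when CD274, the ligand of the inhibitory receptor PD-1, is missing. The labels call the cells leukemia stem cells (LSC). In this model, lineage-negative fetal liver cells carry the MLL-AF9 fusion oncogene on a retrovirus and are transplanted into irradiated recipients. LICs were sorted from bone marrow as Mac-1+/c-Kit+ cells, with C57BL/6 mice aged 6 weeks in the labels of all 4 libraries. The study's sequencing methods speak of RNA isolated from tissue and do not mention the sort. There were 2 libraries labelled WT (wild type) and 2 labelled CD274-null, both groups carrying MLL-AF9. Nothing says whether the 2 libraries of a group came from separate mice, so p-values measure only the spread between these libraries.

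LncRNAs that host snoRNAs are spliced like messenger RNAs, but their exons are mostly degraded in translation-linked decay while the introns are trimmed to stable snoRNAs, which guide the modification of ribosomal RNA. The transcripts of these hosts typically begin with a run of pyrimidines, a signature shared with genes of the translation machinery. Malat1 sits in nuclear speckles, stores of splicing factors, and Neat1 is the scaffold around which paraspeckles form. MicroRNA host transcripts are cut in the nucleus to release hairpins that become mature microRNAs, among them those of the miR-17-92 cluster, a known driver of blood cancers, and miR-142, a marker of blood cells.

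The FPKM values imply a divisor of about 8840000 to 11570000 reads per library. This is well under the number of sequenced reads given in the study's methods, so it is the scale of the FPKM values and not the sequencing depth. Between 16344 and 17038 genes were above 0 in a library. Cd274 itself did not separate the labelled groups. It was at 2.80 and 0.945 FPKM in the libraries labelled WT and at 1.43 and 2.29 FPKM in those labelled CD274-null, so directions below follow the labels alone. The defining genes of the sort and the model were present, with Itgam (Mac-1) at 100 to 174 FPKM, Kit at 6.59 to 19.5 FPKM and Hoxa9 at 71.3 to 75.8 FPKM. Of the 9 genes of LIC identity tested, 1 was a candidate by the rule given below, Mpo, the myeloperoxidase of granule-forming myeloid cells, at 444 and 403 FPKM in WT and 1427 and 925 FPKM in CD274-null (log2 fold change 1.44 ± 0.31, adjusted p = 0.251, limma). Of 7 B and plasma cell markers, the summed level was 30.9 and 59.1 FPKM in WT against 311 and 400 FPKM in CD274-null. Of the 4 tested, 3 were candidates, all higher in CD274-null. Igkc was at 8.64 and 7.98 against 214 and 189 FPKM (adjusted p = 0.00245, limma). Ighm was at 9.04 and 14.1 against 49.1 and 162 FPKM, and Jchain at 0.370 and 0.514 against 12.3 and 10.5 FPKM. The groups of the other tested marker, Cd79b, overlapped, at 12.8 and 36.2 against 35.6 and 37.4 FPKM. Ms4a1 and Pax5 were at 0 in both WT libraries and at most 0.416 FPKM in CD274-null. The 7 erythroid markers summed to 55.7 FPKM in WT replicate 2 and to 0.589 to 4.85 FPKM in the other 3 libraries. The 8 stromal and endothelial markers summed to 13.4 and 19.5 FPKM against 25.1 and 52.0 FPKM, most of it Pecam1, which myeloid cells also express, and the other 7 to 1.53 and 1.13 FPKM against 6.39 and 2.84 FPKM. The 6 T cell markers summed to 0.809 to 3.45 FPKM. Libraries also differed in sex-linked genes, with Xist at 2.57 and 51.1 FPKM in WT against 107 and 68.7 FPKM, and the Y-linked Ddx3y at 27.1 and 18.1 FPKM against 0.0244 and 6.28 FPKM. The part that these markers and sexes have in the results below was not tested.

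FPKM is a level per length, so levels of different genes can be set side by side only on that scale. The gene models behind it are not given, and the library kit selects poly(A) tails, which Malat1 RNA lacks. The part of both in the order below was not tested. Snhg1 had the highest mean, 251 ± 78.4 FPKM (SD, n = 4), followed by Gas5 with 180 ± 78.7, Snhg5 with 168 ± 47.5, Malat1 with 122 ± 32.8 and Snhg12 with 99.6 ± 38.4 FPKM. These 5 stood between the percentiles 95.7 and 98.8 of all genes above 0 in any library, and the range of each over the 4 libraries overlapped that of its neighbour in the order. Within libraries, Snhg1 was above Gas5 and Snhg5 above Malat1 in 4 of 4, Malat1 above Snhg12 in 3 of 4 and Gas5 above Snhg5 in 2 of 4. Neat1 followed at 42.9 ± 4.50 FPKM and Mir17hg at 7.59 ± 2.95 FPKM, and neither overlapped its neighbours. Kcnq1ot1, at 0.221 ± 0.0329 FPKM, and Meg3, at 0 in 3 libraries, closed the list.

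**Figure D1:**
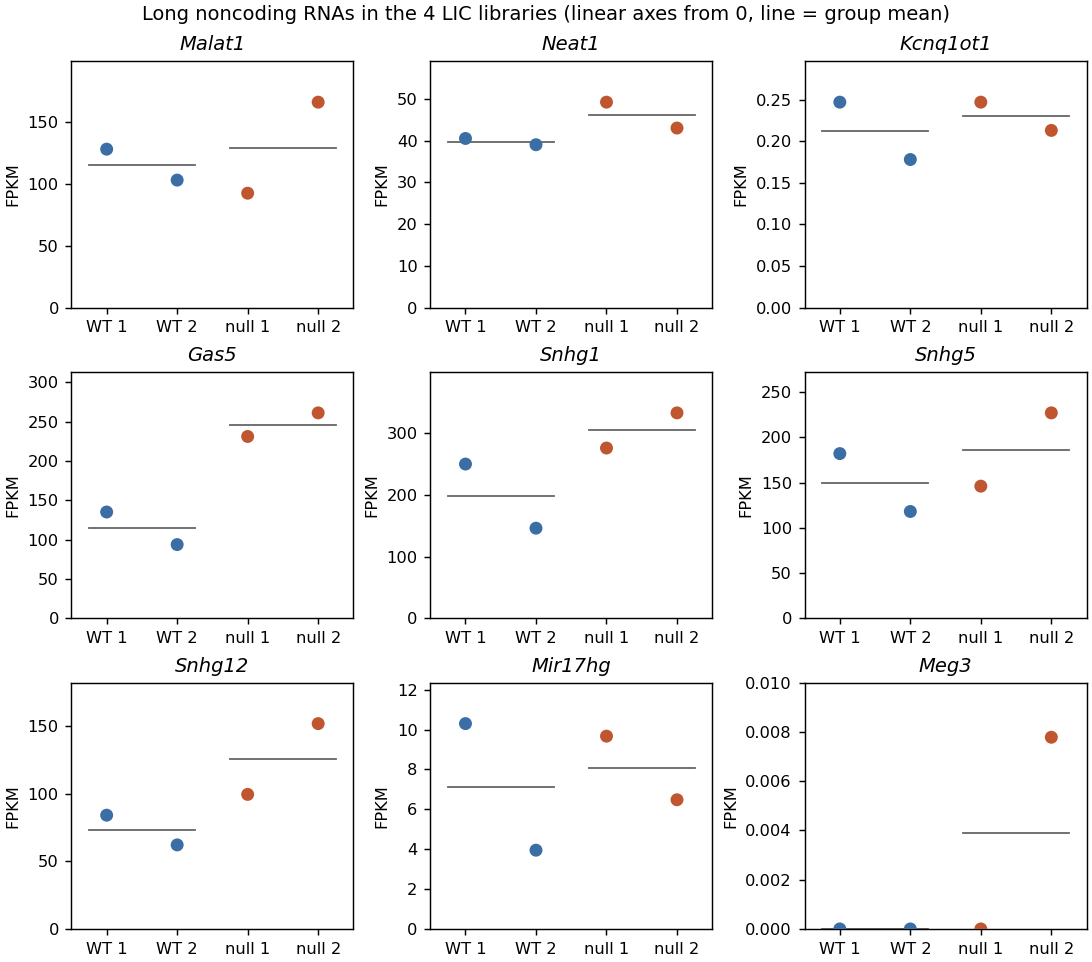
FPKM of 9 lncRNAs in each library, on linear axes from 0, with WT libraries in blue, CD274-null libraries in orange and the group mean as a line. Gas5, Snhg1, Snhg12 and Neat1 lay higher in both CD274-null libraries than in both WT libraries, while the groups of Malat1, Snhg5, Mir17hg and Kcnq1ot1 overlapped.

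The first comparison was of the lncRNAs between libraries labelled CD274-null and WT. Candidate genes were those with a limma p under 0.01, before adjustment, that also changed by more than 1.5-fold, in a fit across all 13230 genes tested. Of the 7 lncRNAs tested, 1 was a candidate, Gas5, and it was higher in CD274-null. Among all genes tested, 2.39% were candidates with higher and 1.24% with lower values in CD274-null. No lncRNA of the 7 passed an adjusted p under 0.05, a threshold that 0.0756% of all genes passed, and 2 of the 7 had an unadjusted p under 0.05, against 13.7% of all genes. The 7 log2 fold changes were all above 0, as were 51.1% of those of all genes, with a median of 0.32 against 0.01 over all genes tested. The count and median depended on single libraries. Without WT replicate 2, 5 of the 7 were above 0, Snhg5 of them by less than 0.01, and the median was 0.18. Without CD274-null replicate 2 the count was also 5, at a median of 0.46, and without WT replicate 1 or CD274-null replicate 1 it stayed at 7, at medians of 0.92 and 0.63. The groups did not overlap, with CD274-null higher, for 4 of the 7, Gas5, Snhg1, Snhg12 and Neat1, a pattern that 25.6% of all genes showed. None of the 7 was lower in CD274-null without overlap, against 21.8% of all genes.

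Gas5 is an lncRNA named for its rise in growth-arrested cells, and its introns hold a series of snoRNAs. Its level was 135 and 93.6 FPKM in WT and 231 and 261 FPKM in CD274-null, and these values rest on at least 3995, 2435, 5219 and 6633 reads. Both CD274-null libraries stood above both WT libraries, and the ratio of the group means was 2.15. In bulk RNA, more cells with Gas5 and more Gas5 RNA per cell cannot be told apart. The log2 fold change of FPKM + 0.5 was 1.12 ± 0.26 (standard error), with an adjusted p of 0.255 in the limma fit. Gas5 was no candidate when the spread was estimated without a trend on expression (adjusted p = 0.298), nor without CD274-null replicate 1 (log2 fold change 1.21), CD274-null replicate 2 (1.03) or WT replicate 2 (0.86). The gene lies at chr1:161034422-161038539 on the plus strand (GRCm38, GENCODE M21), and 428 bases at its start overlap Zbtb37 on the minus strand. As the library kit does not mark strand, reads there cannot be told apart. Zbtb37 as a whole was at 1.65 and 1.52 FPKM in WT and 1.05 and 0.491 FPKM in CD274-null. Its part in the Gas5 values was not tested.

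Snhg1, a host of box C/D snoRNAs, was at 250 and 146 FPKM in WT and 276 and 333 FPKM in CD274-null. Its groups did not overlap, but WT replicate 1 was closer to CD274-null replicate 1 than to WT replicate 2. The log2 fold change was 0.67 ± 0.31 (adjusted p = 0.408, limma). Without WT replicate 1, Snhg1 became a candidate, with a log2 fold change of 1.05 and an adjusted p of 0.287 in the limma fit, and without WT replicate 2 the log2 fold change fell to 0.28. The gene lies at chr19:8723475-8726443 on the plus strand.

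Snhg12, whose introns hold 4 snoRNAs, was at 84.2 and 62.2 FPKM in WT and 99.6 and 152 FPKM in CD274-null. The log2 fold change was 0.76 ± 0.29, with an adjusted p of 0.344 in the limma fit, so the difference did not pass the threshold. CD274-null replicate 2 was the highest library by a wide margin, and the log2 fold change without it was 0.46. Snhg12 lies at chr4:132308623-132311024 on the plus strand.

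Snhg5, the host of Snord50 family snoRNAs, was at 182 and 118 FPKM in WT and 146 and 227 FPKM in CD274-null. Each group held a high and a low library, the groups overlapped, and the log2 fold change was 0.32 ± 0.32 (adjusted p = 0.687, limma). Snhg5 lies at chr9:88521050-88522929 on the minus strand. The 4 snoRNA hosts together summed to 651 and 419 FPKM in WT and to 753 and 974 FPKM in CD274-null. WT replicate 2 was the lowest library for 6 of the 7 tested lncRNAs and CD274-null replicate 2 the highest for 5. WT replicate 2 is also the library with the erythroid markers, whose part in this was not tested.

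The starts of the snoRNA hosts are shown because a pyrimidine run near the start is what these genes are known to share. Each line gives 20 bases before and 30 bases from an annotated start (RefSeq, GRCm38.p6), 5′ to 3′ on the gene's strand. Capitals mark the longest run of C and T, in any order and on that strand, between 10 bases before the start and 20 bases from it.
Gas5, chr1:161035146-161035195, plus strand: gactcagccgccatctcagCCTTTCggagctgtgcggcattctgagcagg
Snhg1, chr19:8723467-8723516, plus strand: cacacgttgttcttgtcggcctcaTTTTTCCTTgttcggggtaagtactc
Snhg5, chr9:88522868-88522917, minus strand: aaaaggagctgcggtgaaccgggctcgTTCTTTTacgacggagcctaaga
Snhg12, chr4:132308658-132308707, plus strand: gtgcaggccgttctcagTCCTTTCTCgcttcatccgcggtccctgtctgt
The run is 6 bases long in Gas5, 7 in Snhg5 and 9 in Snhg1 and in Snhg12. Of 32851 annotated mouse gene starts, 28.7% hold a run of at least 6 bases in this window, 17.9% one of at least 7 and 7.11% one of at least 9, so the run alone does not set these genes apart. Gas5 has another annotated start upstream, whose longest run is 3 bases. In both Gas5, the candidate, and Snhg12, the run spans the annotated start itself.

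**Figure D2:**
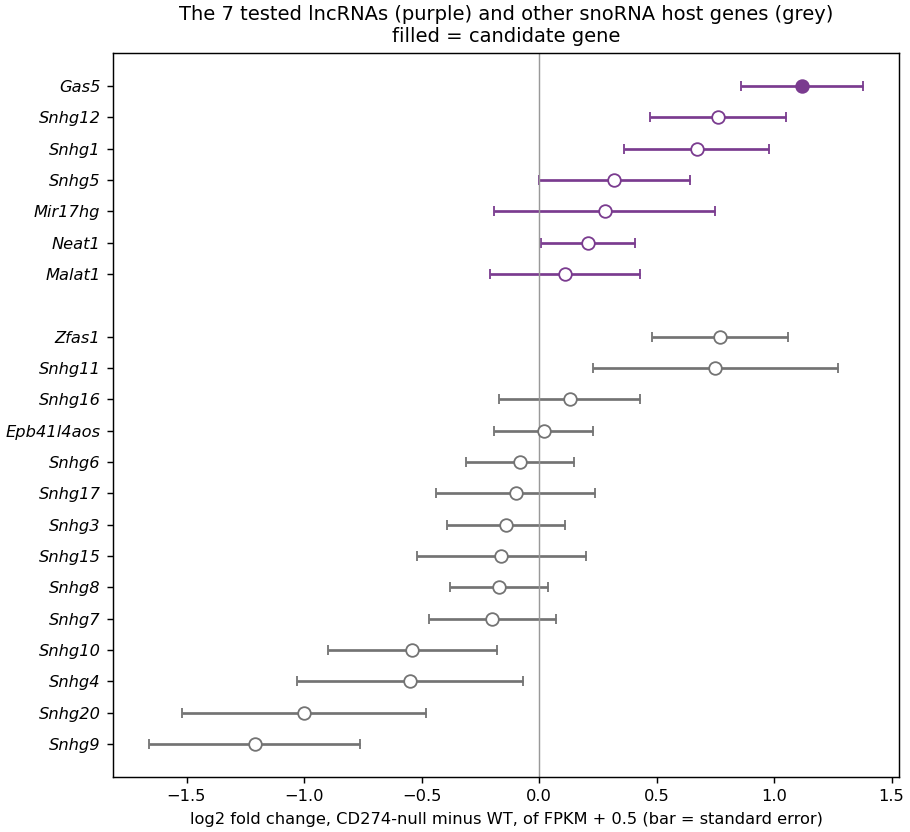
Log2 fold change (CD274-null minus WT, of FPKM + 0.5) with its standard error for the 7 tested lncRNAs in purple and for 14 other snoRNA host genes in grey, with candidates filled. Gas5, at 1.12, is the only candidate drawn, and the other hosts run from -1.21 for Snhg9 to 0.77 for Zfas1.

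A list of 16 other snoRNA host lncRNAs gave the comparison for the 4 hosts. Of its 14 tested genes, none was a candidate in either direction, 2 (Zfas1 and Snhg9, in opposite directions) had an unadjusted p under 0.05, a share near the 13.7% of all genes, and the median log2 fold change was -0.15. Zfas1, a snoRNA host with the highest mean of the list, was at 122 and 94.2 FPKM in WT and 147 and 230 FPKM in CD274-null (log2 fold change 0.77 ± 0.29, adjusted p = 0.343, limma). Its library order was that of Snhg12, and the log2 fold change without CD274-null replicate 2 was 0.45. Snhg6, the next by level, was at 112 and 105 FPKM in WT and 119 and 88.1 FPKM in CD274-null (log2 fold change -0.08 ± 0.23, adjusted p = 0.907). Snhg9 rested on at least 21 and 27 reads in WT and 5 and 14 in CD274-null. Its log2 fold change of -1.21 became -0.61 without CD274-null replicate 1 and -1.80 without CD274-null replicate 2.

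Several snoRNAs of the hosts have rows of their own in the table. These are 1 of the 9 snoRNA genes that GENCODE places in Gas5, 1 of 8 in Snhg1, none of 2 in Snhg5 and 4 of 4 in Snhg12, found by position. The library kit selects poly(A) tails, which snoRNAs lack, so these rows cannot separate mature snoRNA from intron left in host transcripts. Of the 6 snoRNA rows, 2 were candidates, both higher in CD274-null, a call that 2.39% of all genes met. With Snord49a (log2 fold change 0.72 ± 0.22) and Snord87, which lie outside these hosts, 8 snoRNA rows were tested. All 8 log2 fold changes were above 0, as were 51.1% of those of all genes, and their median was 0.91. Of the 8 rows, 5 had an unadjusted p under 0.05, against 13.7% of all genes.

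Snord47, a box C/D snoRNA in Gas5, was at 77.1 and 55.9 FPKM in WT and 219 and 260 FPKM in CD274-null, from at least 58, 37, 126 and 168 reads. Both CD274-null libraries lay far above both WT libraries, and the ratio of means was 3.60. The log2 fold change was 1.85 ± 0.25, with an adjusted p of 0.128 in the limma fit. It was a candidate under each of the 11 alternative settings and without each library in turn, with log2 fold changes of 1.62 to 2.08. Snord47 lies in an exon of only 1 of 25 annotated Gas5 transcripts.

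Snord22, in Snhg1, was at 122 and 65.5 FPKM in WT and 188 and 246 FPKM in CD274-null, from at least 178, 84, 209 and 309 reads. The groups did not overlap, and the log2 fold change was 1.26 ± 0.34 (adjusted p = 0.274, limma). This call was near the threshold. It was lost under 7 of the 11 alternative settings and when any library other than WT replicate 1 was left out, and the log2 fold change was 0.81 without WT replicate 2.

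The sequences of these 2 snoRNAs are printed because their rows moved more than those of their hosts. They are GENCODE transcripts on the plus strand of GRCm38, with capitals for the C box letters TGATGA, where present, and for the last D box letters CTGA, searched on the transcript's strand.
Snord47, chr1:161038082-161038158: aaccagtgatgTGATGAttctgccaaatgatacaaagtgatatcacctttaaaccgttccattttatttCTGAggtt
Snord22, chr19:8725866-8725991: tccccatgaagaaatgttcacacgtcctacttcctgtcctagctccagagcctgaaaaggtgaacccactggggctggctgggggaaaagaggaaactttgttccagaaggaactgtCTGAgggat
Of 1507 GENCODE snoRNA transcripts, 24.0% hold TGATGA with a later CTGA, as Snord47 does, and 79.5% hold CTGA. The letters TGATGA are not in Snord22.

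None of the 4 snoRNA rows of Snhg12 was a candidate. Snord99 was at 24.7 and 38.6 FPKM in WT and 52.5 and 84.3 FPKM in CD274-null (log2 fold change 1.09 ± 0.33, adjusted p = 0.295, limma). Its groups did not overlap, as those of Snord22, and it became a candidate without WT replicate 2 (1.41) and with the replicate block (1.09). Snora16a, Snora44 and Snora61, box H/ACA snoRNAs of the same host, had log2 fold changes of 0.38, 0.31 and 0.12 with adjusted p-values of 0.584, 0.729 and 0.832. Snora16a was at 0.05 without WT replicate 2 and at 0.71 without WT replicate 1. The direction of Snora61 flipped to -0.11 with a correction for GC content. Outside the hosts, Snord87 in Snhg6 was also a candidate, at 17.5 and 6.64 FPKM in WT and 32.1 and 39.4 FPKM in CD274-null (log2 fold change 1.67 ± 0.44, adjusted p = 0.274, limma), while its own host had a log2 fold change of -0.08. The Snord87 call was lost under 6 of the 11 alternative settings and when any library other than WT replicate 1 was left out, and the log2 fold change was 1.0 without WT replicate 2.

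The FPKM of a snoRNA row divided by that of its host shows whether the pair moved by the same factor. Snord47 stood at 0.570 and 0.597 of Gas5 in WT and at 0.949 and 0.995 in CD274-null. Snord22 stood at 0.489 and 0.449 of Snhg1 in WT and at 0.679 and 0.739 in CD274-null. Both ratios were higher in CD274-null without overlap, so the snoRNA rows rose by more than the host rows in these libraries. Snora61 went the other way, from 0.679 and 0.789 of Snhg12 in WT to 0.531 and 0.414 in CD274-null. The ratios of Snora16a, Snora44 and Snord99 to Snhg12 overlapped between the groups. These ratios were looked at after their values were seen and are given without a test.

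**Figure D3:**
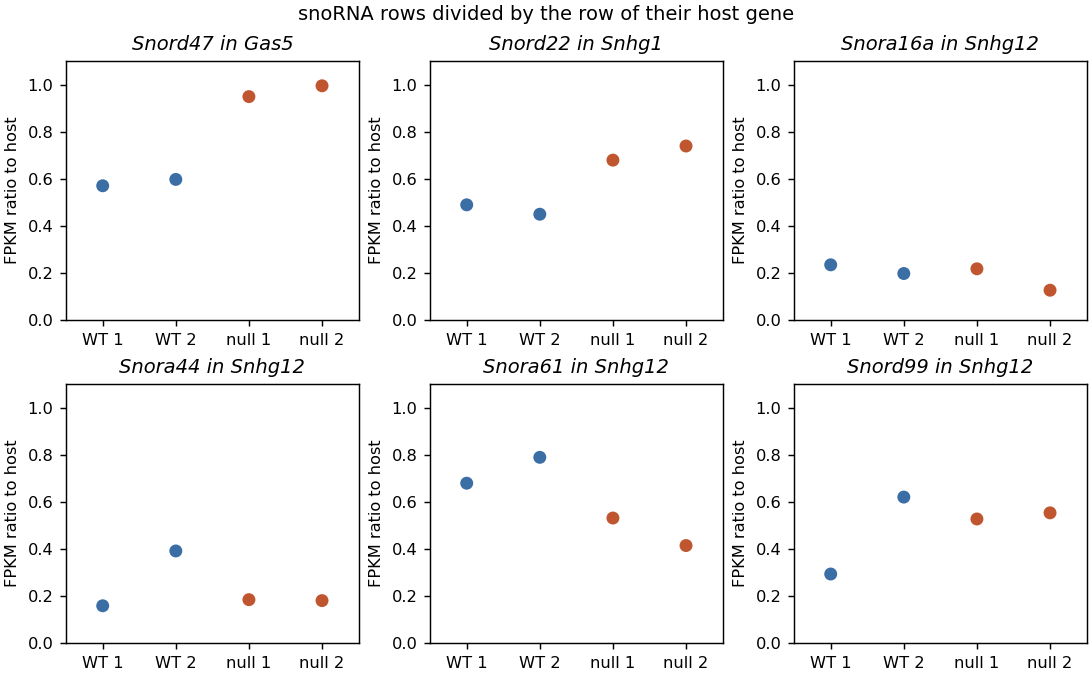
FPKM of 6 snoRNA rows divided by the FPKM of the host gene's row in each library (WT in blue, CD274-null in orange), on a common axis from 0. Snord47 and Snord22 lie higher in both CD274-null libraries, Snora61 lower, and the other 3 overlap.

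The level of Gas5 also depends on which exons were counted. The FPKM values and recovered reads imply a counted length of 2554 bases, and the annotated transcript nearest in length, with 2556 bases in 4 exons, holds 6 of the 9 snoRNAs within its exons. By the same reckoning, Neat1 was counted over 3177 bases, near the short Neat1 isoform (3004 bases) and far under the long isoform (20771 bases). Snhg5 was counted over 1011 bases and Malat1 over 5843 of its 6983 annotated bases. The 303 bases for Snhg12 are under its shortest annotated transcript (422 bases), so its recovered reads are a lower bound.

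Malat1 was at 128 and 103 FPKM in WT and 92.4 and 166 FPKM in CD274-null, the 2 extremes both falling in CD274-null. The groups overlapped, and the log2 fold change was 0.11 ± 0.32 (adjusted p = 0.906, limma). Leaving out CD274-null replicate 2 turned it to -0.31 and leaving out WT replicate 2 to -0.04. Malat1 lies at chr19:5795690-5802672 on the minus strand, and its RNA ends in a triple helix rather than a poly(A) tail.

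Neat1, next to Malat1 at chr19:5824708-5845478 on the same strand, was at 40.5 and 39.0 FPKM in WT and 49.2 and 43.0 FPKM in CD274-null. Its spread over the 4 libraries was the smallest of the 7 relative to its mean. The groups did not overlap, but the log2 fold change of 0.21 ± 0.20 was about the size of its error (adjusted p = 0.674, limma). The long isoform, which builds paraspeckles, contains the sequence of the short one, so the values do not separate them.

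Genes of the bodies that these 2 RNAs mark were read from the same fit. Of 12 paraspeckle proteins, 2 were candidates, both higher in CD274-null, 3 had an unadjusted p under 0.05, and the median log2 fold change was -0.05. Hnrnph3, an RNA-binding protein of the hnRNP H family, was at 19.3 and 14.7 FPKM in WT and 34.8 and 36.7 FPKM in CD274-null (log2 fold change 1.06 ± 0.23, adjusted p = 0.251). Rbm14, needed for paraspeckle assembly, was at 17.2 and 17.7 against 30.6 and 30.7 FPKM (log2 fold change 0.79 ± 0.21, adjusted p = 0.274). The Rbm14 call was lost under 4 of the 11 alternative settings and when any of the 4 libraries was left out, and that of Hnrnph3 when any library other than WT replicate 1 was left out. Cpsf6, a pre-mRNA cleavage factor and the third with an unadjusted p under 0.05, was lower in CD274-null without overlap, at 28.3 and 38.7 against 21.9 and 14.7 FPKM (log2 fold change -0.86 ± 0.29, adjusted p = 0.313). Sfpq and Nono, core partners of Neat1, had log2 fold changes of 0.53 and -0.04 and were not candidates.

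None of 12 nuclear speckle proteins was a candidate at a median log2 fold change of 0.08, and none had an unadjusted p under 0.05. Srsf2 and Srsf7, the most abundant of them and both splicing factors of the SR family, had log2 fold changes of 0.33 ± 0.30 and 0.79 ± 0.33. None of the 11 tested factors that process the ends of Malat1 and Neat1 RNA was a candidate (median -0.03, with Pop1 and Pop5, both higher in CD274-null, the 2 with an unadjusted p under 0.05), with Rpp21 at 0.14 ± 0.20 and Tardbp at 0.14 ± 0.23.

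For the snoRNA hosts, 12 core proteins of snoRNA particles gave no candidate, a median log2 fold change of -0.15 and no unadjusted p under 0.05. Nop58, a core protein of box C/D particles, was at 146 and 79.4 FPKM in WT and 115 and 82.3 FPKM in CD274-null, and Nhp2, a core protein of H/ACA particles, at 117 and 79.6 against 107 and 71.6 FPKM. The 14 factors of nonsense-mediated decay, which removes the spliced host RNAs, also gave no candidate, a median of 0.02 and no unadjusted p under 0.05. Magoh and Eif4a3, parts of the exon junction complex, had log2 fold changes of -0.08 ± 0.24 and -0.15 ± 0.23.

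Mir17hg, the host of the miR-17-92 cluster and a known target of Myc, was at 10.3 and 3.95 FPKM in WT and 9.67 and 6.48 FPKM in CD274-null. The spread within WT was larger than the difference between the group means, with a log2 fold change of 0.28 ± 0.47 (adjusted p = 0.823, limma). Without WT replicate 2 it turned to -0.35. The gene lies at chr14:115042879-115046727 on the plus strand. Its counted length, 2339 bases, equals the RefSeq span that starts 1511 bases after the GENCODE start, and 5 of the 6 hairpins of the cluster start before that span.

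The mature microRNAs of the cluster, with those of miR-142, show which rows share a target-recognition seed. Sequences are from RefSeq (GRCm38.p6), 5′ to 3′, with the seed, bases 2 to 8, in capitals.
miR-17-5p: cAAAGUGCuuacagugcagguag
miR-20a-5p: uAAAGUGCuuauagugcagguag
miR-18a-5p: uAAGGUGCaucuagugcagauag
miR-19a-3p: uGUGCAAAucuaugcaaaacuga
miR-19b-3p: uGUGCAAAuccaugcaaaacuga
miR-92a-3p: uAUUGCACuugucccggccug
miR-142a-5p: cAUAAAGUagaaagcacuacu
miR-142a-3p: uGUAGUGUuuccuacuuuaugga
The cluster thus holds 4 seeds, one shared by miR-17-5p and miR-20a-5p, one by miR-19a-3p and miR-19b-3p, and one each for miR-18a-5p and miR-92a-3p.

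Hairpin rows count reads of the host transcript over the hairpin, since mature microRNAs are too short and untailed for this kind of library. Mir19b-1, with the miR-19 seed, was at 10.9 and 3.39 FPKM in WT and 1.30 and 1.15 FPKM in CD274-null, from 11, 3, 1 and 1 reads. Mir20a, with the miR-17 seed, had 8 and 2 reads in WT and 1 and 1 in CD274-null. Both were lower in CD274-null without overlap, but neither was a candidate (log2 fold changes of -1.95 ± 0.54 and -1.43 ± 0.56, adjusted p of 0.283 and 0.350, limma). Their sizes depended on the WT library left in. The log2 fold changes were -1.17 and -0.64 without WT replicate 1, while both genes became candidates without WT replicate 2, at -2.73 and -2.22. Mir19b-1 also became a candidate with a pseudocount of 0.1 (-2.23).

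Mir19a, with the miR-19 seed, had 3 and 3 reads in WT and 0 and 2 in CD274-null. Its groups did not overlap either (log2 fold change -1.67 ± 0.81, adjusted p = 0.416, limma), and the library with 0 reads set its size. The value was -0.39 without CD274-null replicate 1 and -2.95, a candidate, without CD274-null replicate 2, and it ran from -2.78 to -1.24 with pseudocounts of 0.1 and 1. Mir17 had 0, 2, 0 and 1 reads and Mir18 had 3, 1, 0 and 1, and their groups overlapped. Mir92-1, with the miR-92 seed and inside the RefSeq span, had 6 and 1 reads in WT and 7 and 3 in CD274-null. Together, the 5 hairpins before the RefSeq span had 25 and 11 reads in WT and 2 and 6 in CD274-null. Scaled to the implied total as RPM, reads per 1000000, that is 2.16 (95% exact Poisson interval 1.40 to 3.19) and 1.08 (0.539 to 1.93) against 0.226 (0.0274 to 0.817) and 0.603 (0.221 to 1.31). With Mir92-1 added, all 6 hairpins stood at 2.68 and 1.18 RPM in WT and at 1.02 and 0.904 RPM in CD274-null, a much smaller gap. The intervals cover counting error only, and that of WT replicate 2 overlaps those of both CD274-null libraries. The sums were formed after their values were seen and have no test. The row of Mir17hg itself stood at 24.0 and 9.23 RPM in WT and at 22.6 and 15.2 RPM in CD274-null.

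**Figure D4:**
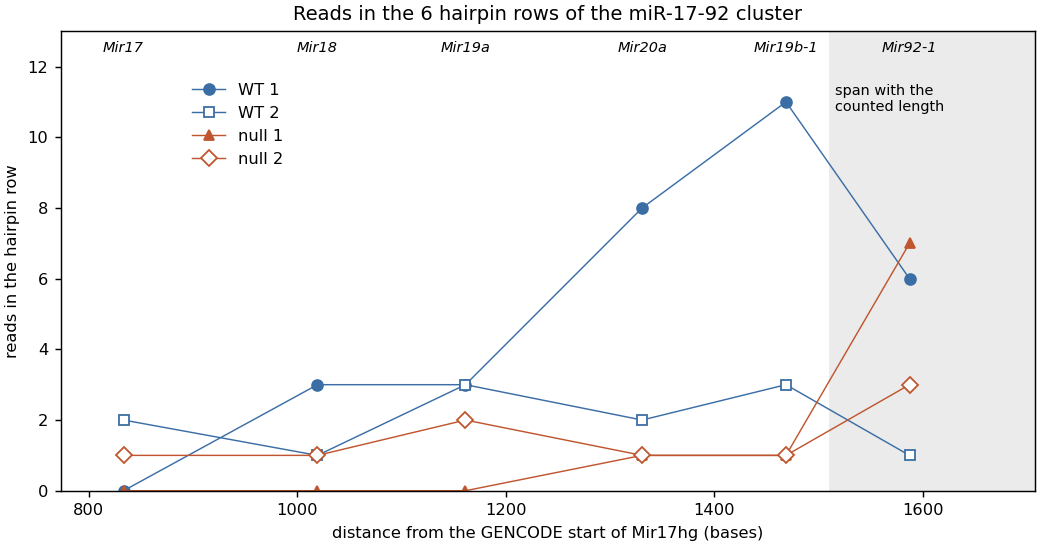
Reads in each of the 6 hairpin rows of the miR-17-92 cluster, by distance from the GENCODE start of Mir17hg, with WT libraries in blue, CD274-null libraries in orange and the RefSeq span shaded. WT replicate 1 rises to 11 reads at Mir19b-1, where both CD274-null libraries have 1, and the libraries mix at Mir92-1.

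Of 9 genes known as targets of the cluster, 1 was a candidate and the median log2 fold change was -0.22. Stat3, the signal transducer of cytokine receptors, was at 112 and 85.2 FPKM in WT and 56.0 and 45.4 FPKM in CD274-null (log2 fold change -0.95 ± 0.24, adjusted p = 0.272, limma). The Stat3 call was lost with an untrended spread, and also when any library other than WT replicate 2 was left out. Bcl2l11, a promoter of apoptosis, had a log2 fold change of 0.53 ± 0.33 and was not a candidate. Of the Myc and E2f regulators of the host, none of the 9 tested was a candidate and none had an unadjusted p under 0.05. Myc was at 92.7 and 67.1 FPKM in WT and 94.7 and 114 FPKM in CD274-null (log2 fold change 0.40 ± 0.25), and Tfdp1, the partner of E2f proteins, had a log2 fold change of 0.28 ± 0.25.

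Of 10 genes of microRNA processing, Ago2 was the only candidate. Ago2, the Argonaute protein that slices targets, was at 15.3 and 13.2 FPKM in WT and 7.63 and 6.04 FPKM in CD274-null (log2 fold change -1.01 ± 0.27, adjusted p = 0.274, limma). Its call was lost under 3 of the 11 alternative settings and when any of the 4 libraries was left out, with log2 fold changes of -1.17 to -0.85. Prkra, a partner of Dicer, had the other unadjusted p under 0.05 in the list, in the opposite direction (log2 fold change 0.64 ± 0.23, adjusted p = 0.333). The median of the list was 0.16. Among the other microRNA host lncRNAs, Mir22hg and Dleu2 were tested and neither was a candidate. Dleu2, the host of miR-15a and miR-16, was at 1.07 and 1.22 FPKM in WT and 2.34 and 2.90 FPKM in CD274-null (log2 fold change 0.92 ± 0.36, adjusted p = 0.349), and Mir22hg had a log2 fold change of 0.11 ± 0.36.

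For miR-142, the hairpin row Mir142 at chr11:87756864-87756927, inside Mir142hg, was the only value. It lies in an exon of 0 of the 1 annotated Mir142hg transcripts, so the row does not measure the spliced host. It was at 21.6 and 13.8 FPKM in WT and 37.1 and 67.5 FPKM in CD274-null, from 16, 9, 21 and 43 reads. Both CD274-null libraries were higher, and Mir142 was a candidate with a log2 fold change of 1.51 ± 0.36 (adjusted p = 0.269, limma). The call was lost under 7 of the 11 alternative settings and when any library other than WT replicate 1 was left out, and the log2 fold change was 1.08 without CD274-null replicate 2. Tspoap1, whose gene starts 3271 bases after Mir142hg ends on the same strand, was at 26.5 and 18.6 FPKM in WT and 87.1 and 67.9 FPKM in CD274-null (log2 fold change 1.77 ± 0.26, adjusted p = 0.143). Tspoap1, named after its values were seen, was no candidate without CD274-null replicate 1 (1.59).

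Kcnq1ot1, the antisense RNA that silences its imprinted neighbours in cis, was at 0.247 and 0.178 FPKM in WT and 0.247 and 0.213 FPKM in CD274-null. Low as this level was, it rested on at least 238, 151, 182 and 177 reads, because the counted length was 83437 bases. The groups overlapped, and the gene fell under the filter and was not tested. Kcnq1ot1 lies at chr7:143203458-143296549 on the minus strand, wholly inside Kcnq1 on the plus strand, and reads of the pair cannot be told apart without strand. Kcnq1 was at 0 to 0.0995 FPKM. Of the 7 tested genes of the domain none was a candidate and none had an unadjusted p under 0.05, and their median was 0.38. Nap1l4 and Tspan32, the most abundant, had log2 fold changes of -0.08 ± 0.23 and 0.46 ± 0.34, and Cdkn1c, a cell cycle inhibitor silenced by Kcnq1ot1, -0.26 ± 0.32.

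Meg3, the maternally expressed RNA of the Dlk1-Meg3 domain, was listed at 0 in both WT libraries and CD274-null replicate 1 and at 0.00778 FPKM in CD274-null replicate 2. It lies at chr12:109541001-109571726 on the plus strand. The microRNA rows inside it, Mir770 and Mir1906-1, were at 0 in every library. Dlk1, Rian and Dio3 of the same domain were at most 0.0835 FPKM, while Wars, at its edge and expressed in most cells, was the 1 gene of the domain tested (log2 fold change -0.56 ± 0.35, adjusted p = 0.518, limma). The domain's noncoding RNAs were thus at or near 0 in all 4 libraries.

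Among 16 other lncRNAs with rows, 7 were tested and 1 was a candidate. Oip5os1, also called Cyrano, which directs the destruction of miR-7, was at 33.6 and 28.0 FPKM in WT and 15.2 and 14.0 FPKM in CD274-null (log2 fold change -1.05 ± 0.23, adjusted p = 0.251, limma). The call was lost when any library other than WT replicate 2 was left out. Ftx, an lncRNA of the X-inactivation centre like Xist, was at 0.796 and 0.996 FPKM in WT and 2.29 and 2.78 FPKM in CD274-null (log2 fold change 1.12 ± 0.37, adjusted p = 0.313, limma). It was not a candidate, but became one with an untrended spread and with voom on recovered reads (1.52). The median of the list was -0.13.

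**Figure D5:**
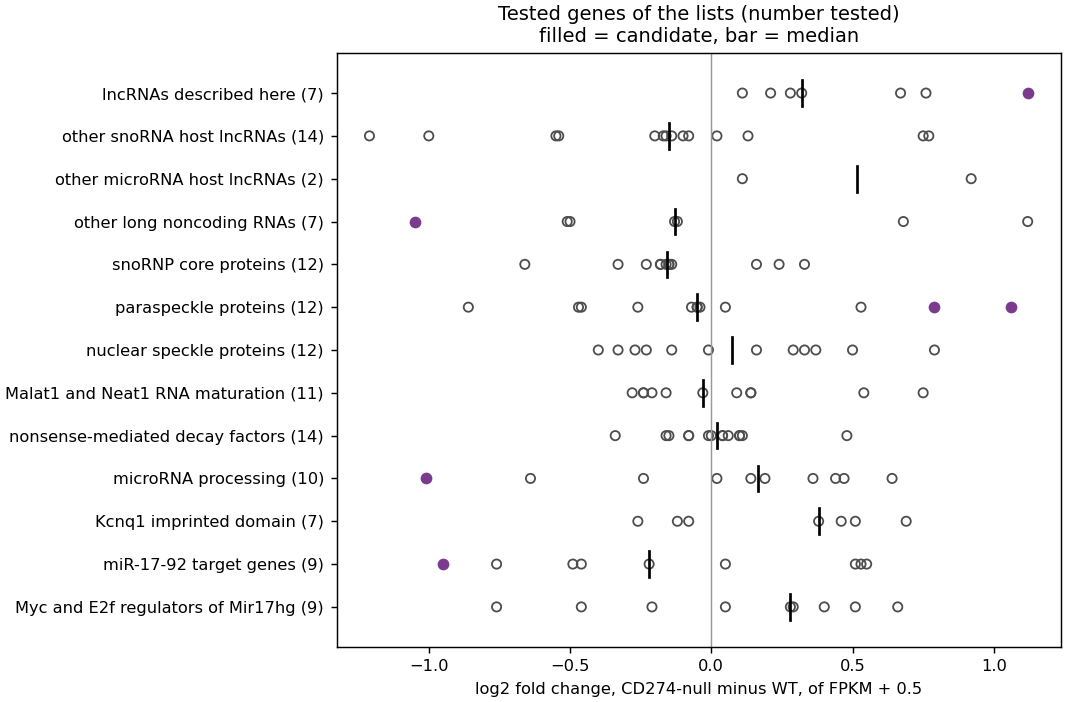
Log2 fold change (CD274-null minus WT, of FPKM + 0.5) of each tested gene of the lncRNAs and of 12 related lists, with candidates filled and the median as a bar. The 7 lncRNAs have a median of 0.32, the other snoRNA hosts -0.15, and the candidates drawn are Gas5, Oip5os1, Hnrnph3, Rbm14, Ago2 and Stat3. The lists of snoRNA and microRNA rows and of the Dlk1-Meg3 domain are not drawn.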

How the data were processed

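The authors sequenced TruSeq v2 libraries on a HiSeq2500, aligned reads to GRCm38 with TopHat2 version 2.0.12 (the submitters' processing notes also name CASAVA 1.8.2), and deposited FPKM per gene and library without a log transformation. The program and gene models behind FPKM are not given in the sources used here. Columns were assigned to the 2 WT and 2 CD274-null libraries by their labels. Gene numbers were given symbols from RefSeq (GRCm38.p6), which named 25275 of 27179, and positions from GENCODE M21 of the same build.

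The members and lists were chosen with earlier results of these data known. Genes with a mean of at least 0.5 FPKM (13230) were tested with limma 3.58.1 in R 4.3.3 (trended eBayes) on log2(FPKM + 0.5), a scale that understates the change of low genes, with Benjamini-Hochberg adjustment over all of them. Named were every member, the candidates of each related list (up to 4), and otherwise its 2 genes of highest mean FPKM. Other genes of the lists were named after their values were seen. A pair of listed genes is not reported here and was left out of its lists. Tables were made with Python 3.11.15.

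Whole reads were recovered from the ratios of the FPKM values for 17083 of 17083 genes above 0 in at least 2 libraries, and they are lower bounds because a multiplier shared by all libraries cannot be seen. Relative depths were 1.00, 0.880, 0.764 and 0.861. The implied totals rest on 214 of 229 snoRNA and microRNA genes that give their annotated length under a single total. Reads of the hairpin rows were computed from annotated length and implied total instead, and lay within 2.65e-09 of whole numbers. Fits and read recovery were tested on simulated data. Alternatives were other pseudocounts, filters, scalings, a GC correction, voom on recovered reads, the replicate block and leaving out each library.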

Additional observations from a re-analysis of the deposited data

How the results depend on the processing

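Gas5 remained the 1 candidate of the 7 lncRNAs under 10 of 11 alternatives and was lost with an untrended spread, where 0 of the 7 were called. Leaving out a library gave 0 to 2 called lncRNAs, the 2 being Gas5 and Snhg1 without WT replicate 1. Candidates among all genes numbered 480, with 359 to 526 under the alternatives and 147 to 634 when a library was left out, 147 without CD274-null replicate 2 and 235 without CD274-null replicate 1. Of the genes of the related lists, 9 were candidates, against 5 with the GC correction, 4 with an untrended spread, 5 without a filter, and 2 to 7 when a library was left out, 2 without either CD274-null library. Adding the replicate block gave 526 candidates, 1 called lncRNA and 10 called list genes. The labels do not say whether same-numbered libraries were paired. Their deviations correlated at -0.0151 over 13230 genes, a single value that cannot settle pairing. With the block Snord99 (log2 fold change 1.09), Mir19b-1 (-1.95) and Snhg9 (-1.21) became candidates, and Rbm14 (0.79) and Ago2 (-1.01) were lost.

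Directions turned in few cases. Without a library in turn, Malat1 ranged from -0.31 to 0.53 on the log2 scale, Snhg5 from -0.00 to 0.63, Mir17hg from -0.35 to 0.92, Snora44 from -0.11 to 0.74, Snora61 from -0.00 to 0.25, Mir17 from -1.62 to 0.88 and Mir92-1 from -0.07 to 1.95. Snora61 was at -0.11 with the GC correction, with and without the replicate block. The cause of these changes was not tested. With 2 libraries a group, an exact permutation test of a single value cannot go under p = 0.333, the hairpins of the miR-17-92 cluster rest on at most 11 reads each, and a library left alone in its group was assumed to vary like the other group.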
